A study of Homo sapiens with 2 samples.

Results

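The genes described here are 10 core subunits of the Polycomb repressive complexes: BMI1, RING1, RNF2, CBX2, CBX7 and CBX8 of PRC1, and EZH1, EZH2, SUZ12 and EED of PRC2. They were taken by gene symbol from the 18930 genes of the deposited table, and were chosen by their role and with their levels and fold changes in these same 2 libraries already known. All 10 were listed with counts, and all 10 passed the minimum of 10 reads over both libraries that 16210 genes passed. RNA-seq was available for 1 library of a group named DR and 1 of a group named WT. The labels assign both to A375, a line derived from a human melanoma, and to culture in DMEM with fetal bovine serum. For its tumour cells, the study's methods give RPMI medium instead. The labels gave both libraries the same 105 days of exposure to the alkylating drug DTIC (spelled DITC there). The study's methods, in contrast, describe DR as cells selected under rising DTIC, and its results name WT as the wild-type control. Each group was therefore 1 culture and 1 library. The rounded counts of all listed genes summed to 54878310 for DR and 35294629 for WT, and the number of reads sequenced is not given here. There was no replicate, so no test was made, and every interval below is a 95% interval for counting error in these 2 libraries alone.

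Polycomb complexes keep genes silent by marking chromatin. PRC1 carries a RING1 or RNF2 ubiquitin ligase that marks histone H2A (H2AK119ub), paired with a PCGF protein such as BMI1 and, in its canonical form, with a CBX protein that reads H3K27 methylation. PRC2 lays down that H3K27 methylation through EZH2 or EZH1, held together by SUZ12 and EED. BMI1 is known as a self-renewal factor that represses the CDKN2A locus, and EZH2 as a driver in melanoma and in many other tumours.

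The column of each library was known only from its description in the labels. Those descriptions differ by 1 punctuation mark, and every direction given here rests on them. The labelled cell type was checked against its markers. Of 7 melanocytic markers 6 were listed, and their summed level was 41.56 CPM (TMM-scaled counts per 1000000 reads) in DR and 40.39 CPM in WT. MITF, the melanocyte master regulator, stood at 34.59 CPM in DR and 34.74 CPM in WT. SOX10, a defining melanoma factor, had 3 reads in DR and 0 in WT. JCHAIN, which encodes the joining chain of secreted antibodies, had 111812 reads in DR and 101680 in WT. The 10 plasma cell markers summed to 5189 CPM and 6256 CPM, all 10 being listed. TYRP1 had 0 reads in DR and 17 in WT, DCT 13 and 9, MLANA 123 and 89, and PMEL 248 and 82, and TYR was not listed. MITF thus made up most of the melanocytic sum in each library, and the plasma cell sum was far above that sum in both. Divided by gene length, MITF lay at the 40.8th percentile of genes tested in DR and the 41.5th in WT, below the median gene. Apart from this level of MITF, the markers did not bear out the labelled melanoma cell type. The values below are therefore not given as melanoma values, and the part of these marker levels in them was not tested. In such bulk libraries, fewer cells of a type and less RNA per cell cannot be told apart.

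The set as a whole differed little between the libraries, with an exception on each side. BMI1 was 5.81-fold lower in DR than in WT. CBX7, a chromodomain subunit that can take a canonical PRC1 complex to H3K27-methylated chromatin, was 4.155-fold higher in DR. The other 8 genes stayed under 2-fold, from RNF2 at a log2 fold change (DR over WT) of -0.75 to EZH1 at 0.44. The values of these contrasts were known when the genes were chosen, so nothing is read from the counts that follow. Of all genes tested, 1212 (7.48%) were at least 2-fold higher in DR and 674 (4.16%) at least 2-fold lower. At 4-fold the shares were 2.09% higher and 1.17% lower. Among the 10 genes, 1 was higher and 1 lower at either threshold. The median log2 fold change was -0.14 for the 10 genes and 0.01 for all genes, and the median size of the difference was 0.18 and 0.31. The counting interval excluded 0 for 8 of the 10 genes, and for 70.4% of all genes.

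**Figure D1:**
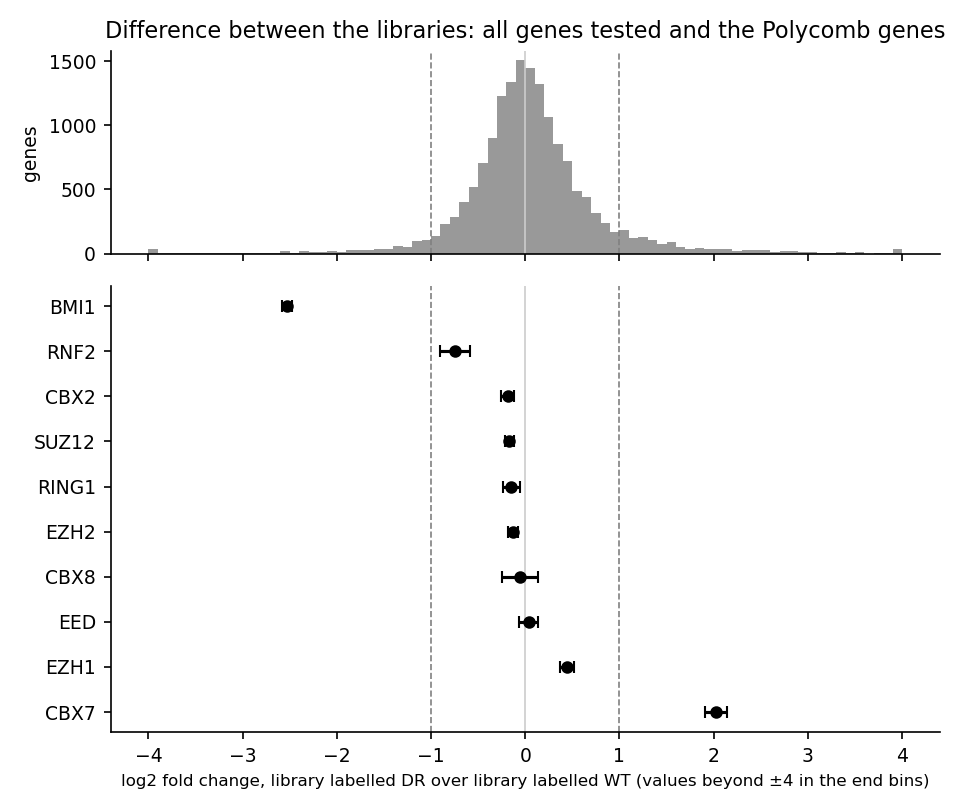
The upper panel counts all 16210 genes tested by log2 fold change, DR over WT, and the lower panel gives each Polycomb gene with its 95% counting interval. Dashed lines mark 2-fold. BMI1 at -2.53 and CBX7 at 2.03 lie in the tails of the upper panel, outside the limits of -1.32 and 1.82 that hold the middle 95% of genes, and the other 8 lie inside them, 6 of these between the quartiles of -0.28 and 0.34 and RNF2 and EZH1 beyond them.

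BMI1 (NCBI Gene 648) is the PCGF subunit that stimulates the RING ligase of canonical PRC1. It had 3998 reads in DR and 14574 in WT, or 71.96 CPM and 418.1 CPM. The DR library was the lower by a wide margin: the log2 fold change was -2.53, with a counting interval from -2.58 to -2.48. Only 0.7% of all genes had a lower value. By level, BMI1 stood at the 96.7th percentile of genes tested in WT and at the 76.1st in DR. BMI1 was thus among the more abundant transcripts of WT and remained above the median gene in DR.

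BMI1 shares its locus with COMMD3, a neighbouring gene of the COMMD family, and with the read-through transcript COMMD3-BMI1. BMI1 counts in the deposited table were not whole (3997.61 and 14574.09), and how reads were split between overlapping transcripts is not given in the sources used here, so each of these 3 values is uncertain. COMMD3-BMI1 had 782 reads in DR and 3643 in WT, a log2 fold change of -2.85 (interval -2.96 to -2.74). COMMD3 had 3053 and 5895 reads, with a log2 fold change of -1.61. Adding the read-through reads to those of BMI1 gave 86.03 CPM in DR and 522.6 CPM in WT, with a log2 fold change of -2.60. The sum over all 3 was 141.0 CPM and 691.7 CPM, at -2.29 (interval -2.33 to -2.25). Each of the 3 transcripts, and each of these sums, was lower in DR.

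The starts of BMI1 and of COMMD3, genes of 1 locus that were low together in DR, are shown with that of CBX7, because BMI1 and CBX7 differed most among the 10 genes. Each run is the 250 bases before the RefSeq start of the gene (GRCh38.p14), 5′ to 3′ on the gene's strand, in lower case, with E-box letters in capitals. The BMI1 run is chr10:22320849-22321098 on the plus strand, the COMMD3 run is chr10:22316138-22316387 on the plus strand, and the CBX7 run is chr22:39152681-39152930 on the minus strand.
BMI1: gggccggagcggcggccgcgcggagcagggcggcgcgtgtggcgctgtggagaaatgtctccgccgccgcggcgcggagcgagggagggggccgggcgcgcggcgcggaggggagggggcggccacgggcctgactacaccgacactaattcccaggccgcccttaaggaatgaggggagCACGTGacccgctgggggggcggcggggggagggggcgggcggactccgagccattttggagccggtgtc
COMMD3: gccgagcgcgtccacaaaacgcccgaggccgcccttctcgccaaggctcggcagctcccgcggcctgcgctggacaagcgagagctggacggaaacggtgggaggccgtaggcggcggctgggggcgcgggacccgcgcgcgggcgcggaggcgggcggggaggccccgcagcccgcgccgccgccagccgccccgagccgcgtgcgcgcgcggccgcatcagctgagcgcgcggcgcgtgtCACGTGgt
CBX7: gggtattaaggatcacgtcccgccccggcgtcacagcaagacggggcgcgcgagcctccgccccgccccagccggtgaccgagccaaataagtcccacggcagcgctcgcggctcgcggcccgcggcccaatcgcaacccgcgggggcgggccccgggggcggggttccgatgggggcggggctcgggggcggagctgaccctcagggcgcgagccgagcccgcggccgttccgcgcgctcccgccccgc

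An E-box, CACGTG, was present once before BMI1, 70 bases upstream of the start, and once before COMMD3, 8 bases upstream. CBX7 held none. These distances count from RefSeq starts. The end of the BMI1 window, past its start, was not found in the GENCODE transcripts of BMI1, while those of COMMD3 and CBX7 were found in theirs. The motif was searched on both strands of windows of 300 bases, 250 before and 50 after each start, and 7.229% of 34943 such windows in the RefSeq table held it. E2F-type letters (TTTCGCGC, TTTGGCGC or TTTCCCGC, of which none overlaps the E-box) were found at EZH2, as TTTGGCGC beginning 2 bases into the transcript, and at SUZ12, as TTTCCCGC 189 bases upstream, against 2.722% of all windows. BMI1 and EZH2 each had a second window in the table, and neither motif was in it. The table held windows for 8 of the 10 genes, BMI1, RING1, RNF2, CBX7, EZH1, EZH2, SUZ12 and EED. Of their 10 windows, 9 had a GC content above the median of 58.67% for all windows, and EED at 52.33% did not. The CBX7 window had 77.67% GC and 50 CpG sites, and the first BMI1 window had 73.33% and 36 sites, against a median of 14 sites. These matches describe the letters only.

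In WT, BMI1 was also the most abundant PCGF paralog by far. Divided by gene length, its level was 121.7 RPKM (CPM per kilobase of gene length) in WT and 20.95 RPKM in DR. Canonical PRC1 uses either BMI1 or PCGF2, and the other paralogs belong to variant PRC1. BMI1 made up 79.51% of the summed PCGF level per length in WT (counting interval 78.95% to 80.07%) and 37.92% in DR (37.01% to 38.84%). The other 5 paralogs together stood at 31.36 RPKM in WT and 34.29 RPKM in DR, so the sum over the family was 153.1 RPKM in WT and 55.24 RPKM in DR. PCGF2, the alternative canonical subunit, was at 3.389 RPKM in WT and 4.724 RPKM in DR, a log2 fold change of 0.46. BMI1 outnumbered PCGF2 per length 35.91 to 1 in WT and 4.435 to 1 in DR. Even in DR, BMI1 remained the largest single share, above PCGF1 at 16.52% and PCGF5 at 14.48%.

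CBX7 (NCBI Gene 23492) had 4205 reads in DR and 635 in WT, or 75.68 CPM and 18.22 CPM. The DR library was the higher, with a log2 fold change of 2.03 (interval 1.91 to 2.15), above 98.0% of all genes. Its level lay at the 44.7th percentile of genes tested in WT and at the 74.1st in DR. CBX2 and CBX8, which hold the same place in PRC1, moved little. CBX2 had 70.36 CPM in DR and 79.97 CPM in WT, a log2 fold change of -0.18 (interval -0.25 to -0.11). CBX8 had 9.575 CPM and 9.982 CPM, at -0.06, and its interval from -0.25 to 0.13 included 0.

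Per length, CBX7 was compared with CBX2, CBX6 and CBX8. Of the summed level of these 4 genes, CBX7 made up 6.69% in WT (interval 6.195% to 7.203%) and 22.05% in DR (21.48% to 22.63%). It was the lowest of the 4 in WT, at 4.58 RPKM, just under CBX8 at 6.395 RPKM. In DR it stood at 19.03 RPKM, close to CBX2 at 17.42 RPKM. CBX6 was the most abundant of the 4 in both libraries, at 43.72 RPKM in DR and 37.72 RPKM in WT. Without CBX7, the other 3 genes summed to 67.27 RPKM in DR and 63.92 RPKM in WT.

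**Figure D2:**
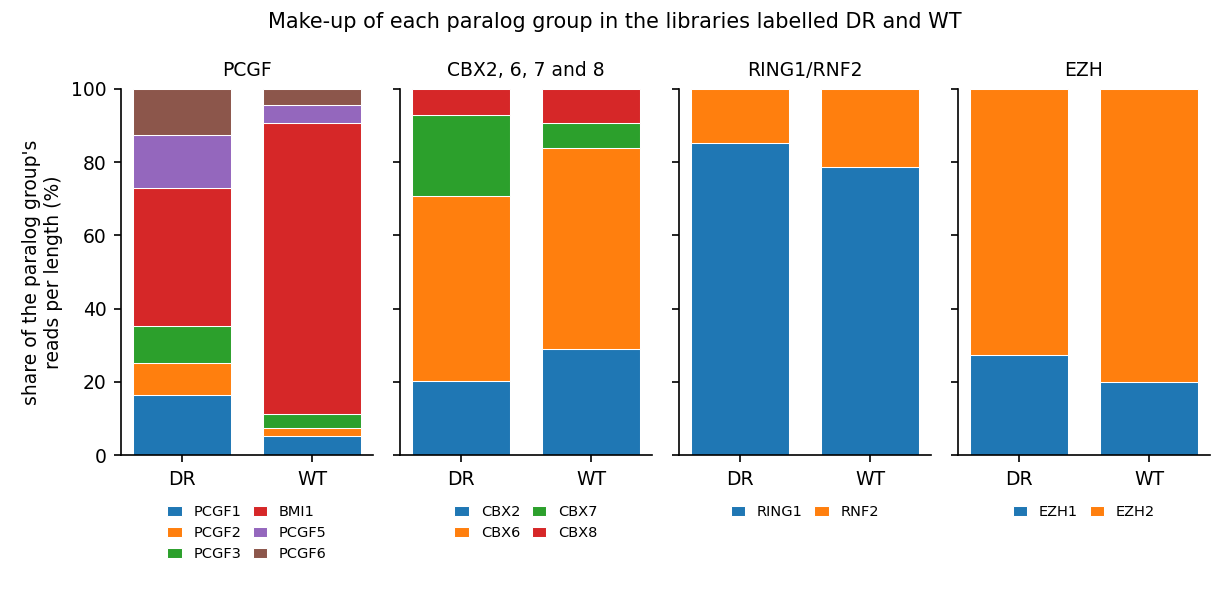
Stacked bars give each paralog's share (%) of the reads per length of the genes shown in its panel, in DR and in WT. BMI1 fills 79.51% of the PCGF bar in WT and 37.92% in DR, and CBX7 fills 6.69% of the CBX bar in WT and 22.05% in DR, while the RING1/RNF2 and EZH bars differ by under 10 percentage points.

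RING1 and RNF2 are the alternative catalytic subunits of PRC1. RING1 (NCBI Gene 6015) had 2511 reads in DR and 1748 in WT, or 45.19 CPM and 50.14 CPM, a log2 fold change of -0.15 (interval -0.24 to -0.06). RNF2 (NCBI Gene 6045) had 614 and 658 reads, or 11.05 CPM and 18.87 CPM, and was 1.708-fold lower in DR. Its log2 fold change of -0.75 (interval -0.90 to -0.59) was below that of RING1, with 7.4% of all genes lower still. RING1 was the more abundant of the pair per length in both libraries, at 25.91 RPKM in DR and 28.75 RPKM in WT. RNF2 made up 14.89% of the pair in DR (13.78% to 16.05%) and 21.21% in WT (19.73% to 22.76%). The RING1 to RNF2 ratio per length was 5.717 in DR and 3.714 in WT, a log2 difference of 0.62 (interval 0.44 to 0.80). RNF2 was the least abundant of the 10 genes per length in DR.

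The 4 PRC2 genes were close to even between the libraries, with log2 fold changes from -0.17 to 0.44. EZH2 (NCBI Gene 2146), the methyltransferase of proliferating cells, had 7330 reads in DR and 5029 in WT, or 131.9 CPM and 144.3 CPM. The difference was small, a log2 fold change of -0.13 (interval -0.18 to -0.08). SUZ12 (NCBI Gene 23512), which the complex needs for its stability, had 164.4 CPM and 184.8 CPM, at -0.17 (interval -0.22 to -0.12). EED (NCBI Gene 8726), the subunit that reads H3K27me3 and stimulates the enzyme, had 35.82 CPM and 34.88 CPM, at 0.04, and its interval from -0.07 to 0.14 included 0. EZH1 (NCBI Gene 2145), the less active paralog that prevails in resting cells, was the PRC2 gene that differed most. It had 4512 reads in DR and 2081 in WT, or 81.21 CPM and 59.69 CPM, 1.36-fold higher in DR at a log2 fold change of 0.44 (interval 0.37 to 0.52).

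EZH2 was the major methyltransferase per length in both libraries. It made up 79.94% of the EZH pair in WT (79.1% to 80.75%) and 72.81% in DR (72.07% to 73.54%). The EZH2 to EZH1 ratio was 3.984 in WT and 2.678 in DR, a log2 difference of -0.57 (interval -0.66 to -0.48). The sum of both was 66.01 RPKM in WT and 66.27 RPKM in DR. Beside this, 16 proliferation genes had a median log2 fold change of -0.07. None reached 2-fold, where 7.48% of all genes were at least 2-fold higher in DR and 4.16% at least 2-fold lower. Values of the 16 ran from E2F2 at -0.54 to E2F1 at 0.16, MKI67 standing at 494.4 CPM in DR and 639.9 CPM in WT.

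Ranked per length, the 10 genes kept much of their order apart from BMI1 and CBX7. In WT the order was BMI1, EZH2, SUZ12, RING1, CBX2, EZH1, EED, RNF2, CBX8 and CBX7, from 121.7 RPKM down to 4.58 RPKM. In DR it was EZH2, SUZ12, RING1, BMI1, CBX7, EZH1, CBX2, EED, CBX8 and RNF2, from 48.25 RPKM down to 4.533 RPKM. Neighbours in the order were apart by more than counting error, except EZH1 and EED in WT and EZH1 and CBX2 in DR. The median gene stood at 6.403 RPKM in WT and 6.464 RPKM in DR, and 8 of the 10 Polycomb genes were above it in each library. Those below were CBX7 and CBX8 in WT, and RNF2 and CBX8 in DR.

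**Figure D3:**
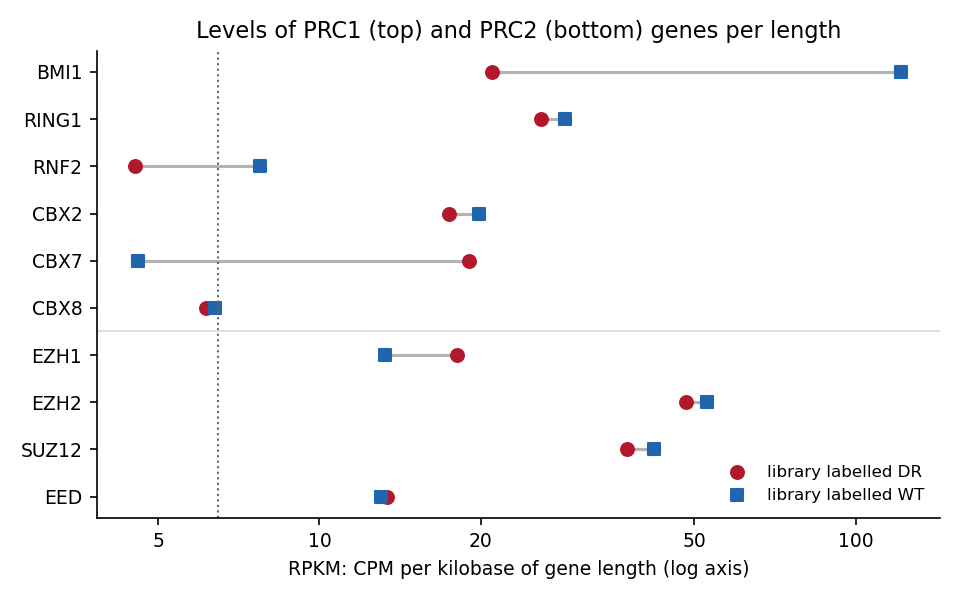
Each row is a Polycomb gene, with its level in RPKM on a log axis in DR (circles) and WT (squares), and the dotted line is the median gene of DR at 6.464. BMI1 spans 20.95 to 121.7 and CBX7 spans 4.58 to 19.03 in opposite directions, and the other pairs of points lie close together.

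The genes on either side of BMI1 and CBX7 were also looked at, 5 each way in the RefSeq gene order, a window chosen after the values were seen. Of the 10 genes around BMI1 on chromosome 10, 5 were at least 2-fold lower in DR and 1 was at least 2-fold higher, with a median log2 fold change of -0.85. The lower genes included COMMD3 and COMMD3-BMI1, described above, which share the BMI1 locus and so are not separate from it. DNAJC1, a chaperone partner of the endoplasmic reticulum, had 4486 reads in DR and 11391 in WT, a log2 fold change of -2.01. SPAG6, a sperm flagellum gene, had 107 and 273 reads, at -1.78. EBLN1, also counted among the 5, had 0 reads in DR and 20 in WT, so its value depends on the pseudocount. It passed the minimum of reads through WT alone, so nothing is read from it. OTUD1, a deubiquitinase, was the exception with 684 and 133 reads, at 1.57. MLLT10, PIP4K2A and MSRB2 lay between -0.60 and -0.50.

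Around CBX7 on chromosome 22 the pattern ran the other way. Of 10 genes, 5 were at least 2-fold higher in DR and 1 at least 2-fold lower, with a median log2 fold change of 1.04. The APOBEC3 genes next to it encode cytidine deaminases that restrict viruses and are near copies of one another, so reads can be split among them and each value is uncertain. APOBEC3H had 508 reads in DR and 32 in WT, at 2.77, and APOBEC3D, APOBEC3F and APOBEC3G stood at 2.18, 1.16 and 1.22. SYNGR1, a synaptic vesicle gene, had 205 reads in DR and 7 in WT, at 2.58. It passed the minimum of reads only through DR, so nothing is read from it. PDGFB, a growth factor, was short of 2-fold at 0.93. MGAT3, a glycosyltransferase, was lower in DR, with 2123 and 4326 reads, at -1.69. Other members had neighbours mostly on 1 side too: 9 of 10 genes around RING1 were above 0, with RING1 itself at -0.15, and 8 of 10 around RNF2 were below 0. Whether neighbours go with a member was not tested. Over all genes, 7.48% were at least 2-fold higher and 4.16% at least 2-fold lower.

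**Figure D4:**
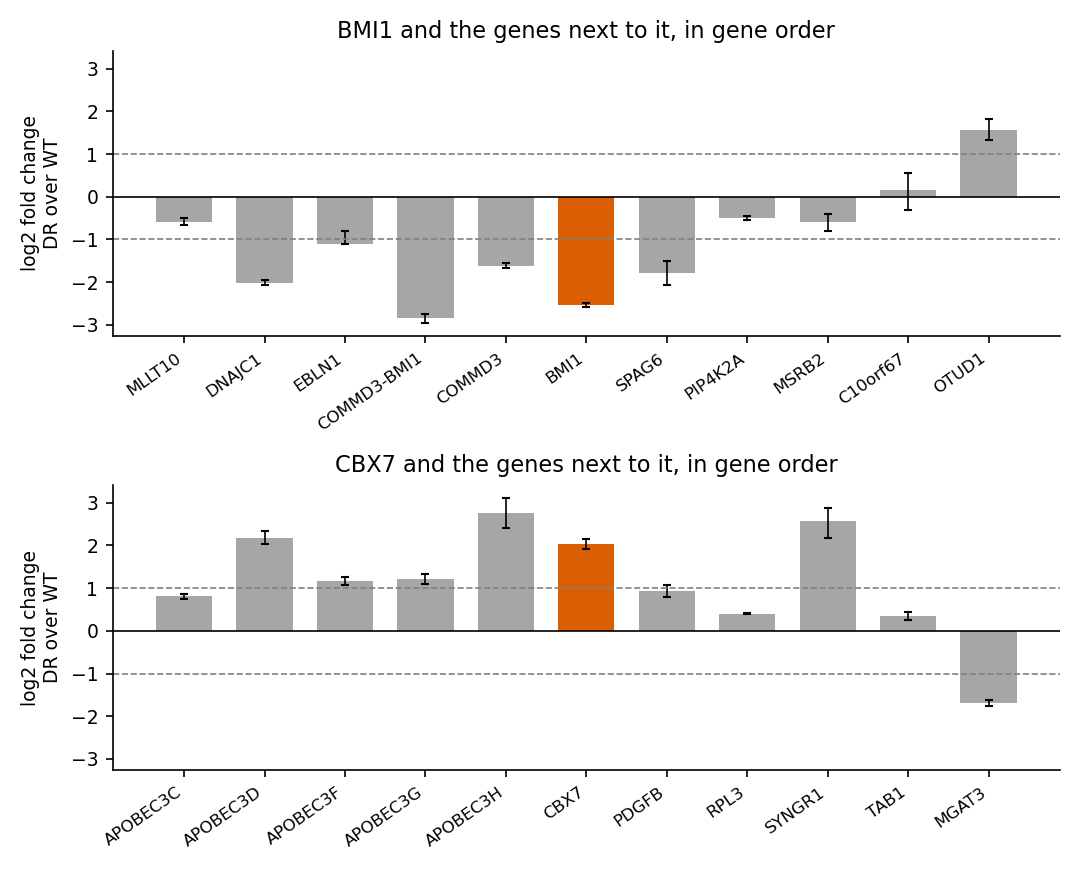
Bars give the log2 fold change, DR over WT, of BMI1 (upper panel) and CBX7 (lower panel) and of the 5 genes on each side in gene order, with 95% counting intervals and dashed lines at 2-fold. Around BMI1, 8 of 10 neighbours are below 0, and around CBX7, 9 of 10 are above 0. EBLN1 has 0 reads in DR, so the length of its bar depends on the pseudocount.

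Over 5 lists of PRC1 and PRC2 partners and of enzymes that remove their marks, 49 genes were tested. Of these, 1 was at least 2-fold higher in DR and 1 at least 2-fold lower. Both directions together made up 4.082% of the 49, beside 7.48% of all genes that were higher and a further 4.16% that were lower. The median log2 fold change of the 49 genes was -0.07, with a median size of 0.24 against 0.31 for all genes. Among 10 other canonical PRC1 subunits the median was -0.21. PHC1, a polyhomeotic subunit that lets PRC1 cluster, was 2-fold lower by a narrow margin, with 7.973 CPM in DR and 16.47 CPM in WT and a log2 fold change of -1.002 (interval -1.18 to -0.83). SCML2 at -0.97 and SCML1 at -0.91 stopped short of it, and PHC2 at -0.10 and PHC3 at 0.24 were close to even.

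Among 16 subunits of variant PRC1, the median was -0.09. AUTS2, which joins PCGF3 or PCGF5 complexes and is linked to gene activation in neurons, was the gene past 2-fold. It had 5470 reads in DR and 1030 in WT, or 98.45 CPM and 29.55 CPM, 3.332-fold higher in DR at a log2 fold change of 1.72 (interval 1.63 to 1.82). BCORL1 stood at 0.69, while its relative BCOR, a scaffold of PCGF1 complexes, stood at -0.79 with 176.7 CPM in DR and 306.7 CPM in WT. E2F6, which takes PCGF6 complexes to DNA, stood at -0.85.

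Of all genes, 7.48% were at least 2-fold higher in DR and 4.16% at least 2-fold lower. No PRC2 accessory subunit reached 2-fold among 10 tested of 11, EZHIP having 1 read in DR and 2 in WT. Their range was -0.46 for AEBP2 to 0.46 for JARID2, both of which mark the same form of PRC2. The 11 H2AK119 deubiquitinases and partners ran from HCFC1 at -0.60 to ASXL3 at 0.59, with BAP1, the catalytic subunit, at -0.07. The H3K27 demethylases KDM6A and KDM6B stood at -0.36 and 0.14.

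Complexes that oppose Polycomb were counted in the same way. Of all genes, 7.48% were at least 2-fold higher in DR and 4.16% at least 2-fold lower. Of 12 Trithorax and COMPASS genes, 1 was at least 2-fold lower in DR and none higher, with a median of -0.21. The gene was SETD1B, an H3K4 methyltransferase, with 71.83 CPM in DR and 150.3 CPM in WT and a log2 fold change of -1.06 (interval -1.12 to -1.001). Of 11 SWI/SNF remodeller genes none reached 2-fold, and the median was -0.09. With so few genes in each list, nothing is read from these counts.

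**Figure D5:**
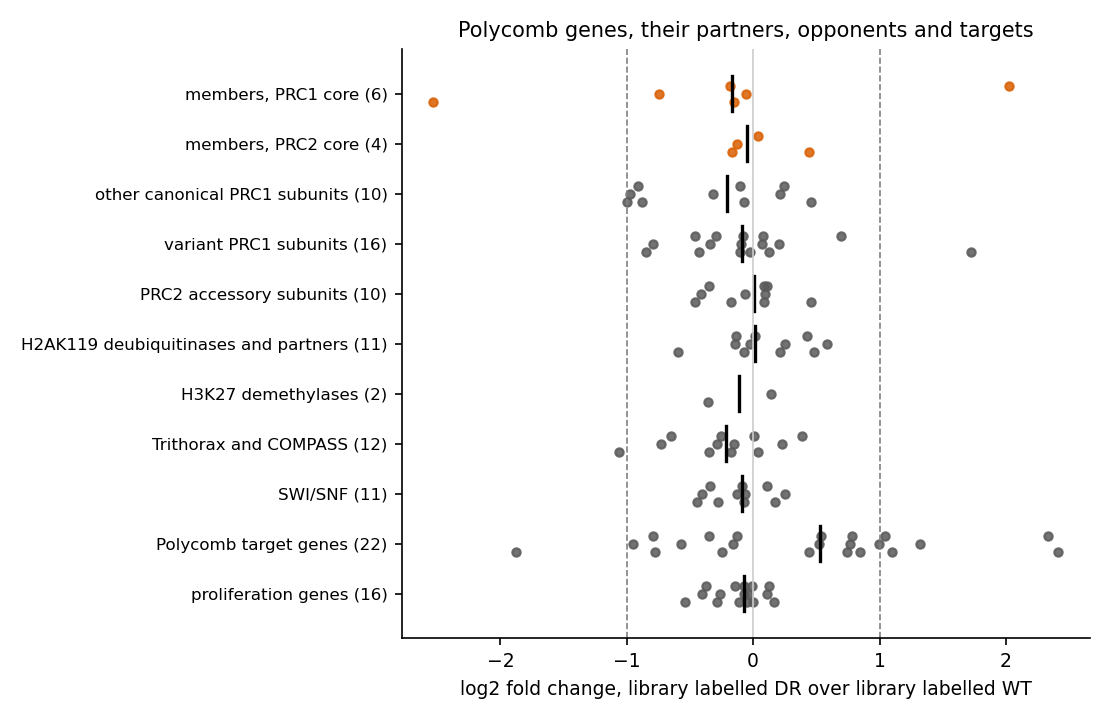
Each point is a gene placed by its log2 fold change, DR over WT, in rows by list with the number tested in parentheses, the 10 Polycomb genes in orange, vertical bars at list medians and dashed lines at 2-fold. Machinery lists centre near 0 with medians from -0.21 to 0.02, while the Polycomb target genes spread from -1.88 to 2.42.

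A list of 30 genes often silenced by Polycomb in other cells was also described. Of these 27 were listed, 24 had counts and 22 passed the minimum of reads, 5 of them at least 2-fold higher in DR and 1 at least 2-fold lower, where 7.48% and 4.16% of all genes were. A gene read in 1 library only could pass through that library, so the 22 do not stand for the list. Their median log2 fold change was 0.53, but 15 of the 22 were under 5 CPM in both libraries and 4 of the 5 higher genes were among those. ALX4, a developmental homeobox factor, had 180 reads in DR and 7 in WT, with a log2 fold change of 2.42. FOXA2 had 22 reads in DR and 0 in WT. With WT set at a floor of 3 reads and the DR count taken as exact, it was 4.601-fold higher. NKX2-2 and SIX2 had 12 and 10 reads in DR and 0 in WT, 2.51-fold and 2.091-fold higher on the same terms. These 3 genes passed the minimum through DR alone, so nothing is read from them. They are not among the 5 counted above, as with the pseudocount FOXA2, NKX2-2 and SIX2 stood at 0.84, 0.52 and 0.44.

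Above 5 CPM, the related homeobox genes MEIS1 and MEIS2 went opposite ways. MEIS1 had 1027 reads in DR and 304 in WT, at 1.04 (interval 0.86 to 1.22). MEIS2 had 233 and 583 reads, at -1.88 (interval -2.08 to -1.67). CDKN2A, the cell cycle inhibitor locus that BMI1 is best known to repress, had 5532 reads in DR and 4432 in WT, or 99.57 CPM and 127.1 CPM. Its log2 fold change was -0.35 (interval -0.41 to -0.29), and whether it goes with the level of BMI1 was not tested. CDKN2B, beside it in the genome, had 4.104 CPM in DR and 7.458 CPM in WT, at -0.79. CDKN1C, an imprinted inhibitor, had 30.06 CPM and 17.3 CPM, at 0.78.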

How the data were processed

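Total RNA was sequenced from 1 library labelled DR and 1 labelled WT, and the authors deposited a table of 18930 genes with gene lengths and the estimated counts they had made from the reads by steps not given in the sources used here. The submitters' processing notes name Bowtie 0.12.2 and hg19, without saying how they were used. The authors' deposited log2 ratio, p-value and q-value columns hold their own comparison and were not used, and 663 genes had no count. Counts were rounded, scaled by TMM (edgeR 4.0.16, R 4.3.3) and compared as log2((CPM + 0.5)/(CPM + 0.5)). Folds printed for single genes are ratios of CPM without the 0.5, so they differ slightly from the log2 values beside them. Calls at a fold threshold use the log2 values. Genes under 10 reads over both libraries (2057) were left out. Since neither group had a replicate, the edgeR quasi-likelihood test was not possible, and called means at least 2-fold. Intervals were 95% Clopper-Pearson (SciPy 1.17.1), or Wald intervals for ratios of paralogs, and cover counting error only, since reads without molecular identifiers are not independent molecules. At the TMM-scaled count totals, 3 reads were 0.054 CPM in DR and 0.0861 CPM in WT. The code was tested on simulated data. The members, lists and motifs were chosen with earlier results of these data known. Genes named outside the members were list genes at least 2-fold different at a mean of at least 5 CPM, paralogs, and neighbours at least 2-fold different. Others, such as ALX4, SCML2, BCOR and CDKN2A, were named after their values were seen. For 18583 genes the NCBI Gene ID matched RefSeq (GRCh38.p14), which gave names, gene order and start sequences. Alternatives were other scalings, pseudocounts, filters, fold thresholds, unrounded counts and shares without length and, chosen after seeing the data, the read-through sum and the omission of genes with fractional counts. Shares of CBX7 were taken over CBX2, CBX6, CBX7 and CBX8, a narrower group than planned, and some genes are not reported here.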

Additional observations from a re-analysis of the deposited data

How the results depend on the processing

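No paired analysis was possible because each group had 1 library. None of the 10 log2 fold changes turned its direction under any alternative run in which it was computed. DESeq2 size factors, unrounded counts and a minimum of 50 reads left every value computed under them within its error. With a pseudocount of 5 CPM the log2 fold changes were -2.46 for BMI1, -0.57 for RNF2 and 1.80 for CBX7. The number of genes called moved with the pseudocount. At 5 CPM, 423 genes were at least 2-fold higher and 333 lower, and at 0.1 CPM 1726 and 907. With the read-through reads, added after seeing the data, BMI1 was at -2.60. At 1.5-fold, 2444 genes were higher and 1808 lower, with 2 of the 10 Polycomb genes lower, BMI1 and RNF2, and at 4-fold 339 and 189. Leaving out genes with fractional counts, also added later, tested 7508 genes, of which 709 were higher and 358 lower. BMI1, EZH2 and EED have fractional counts, so that run left them out and says nothing of their values. Without division by length, EZH2 made up 61.9% of its pair in DR and 70.73% in WT, RNF2 19.65% and 27.35%, CBX7 17.81% of the 4 CBX genes in DR and 5.35% in WT, and BMI1 36.01% and 77.41%. The median of the Polycomb target genes ranged from 0.09 at a pseudocount of 5 CPM to 0.79 at 0.1 CPM. Depth limits the target genes, as 15 of 22 were under 5 CPM in both libraries, and no value has a replicate.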

Other observations

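The neighbours of the other 8 Polycomb genes were described in the same way, 5 genes on each side, in a window chosen after the values were seen. Around RNF2 on chromosome 1, 2 of 10 were at least 2-fold lower in DR and none higher. These were NIBAN1, a stress response gene, with 2626 reads in DR and 5894 in WT (log2 fold change -1.83), and EDEM3, which acts in glycoprotein quality control, with 12748 and 25237 reads (-1.66). Around SUZ12, 3 of 10 were at least 2-fold higher and none lower, with a median of 0.22. RING1, EZH2 and EED each had 1 higher neighbour and none lower, CBX2 and CBX8, which adjoin on chromosome 17, each had 1 lower and none higher, and EZH1 had none in either direction. Over all genes, 7.48% were at least 2-fold higher and 4.16% at least 2-fold lower, and whether neighbours go with a member was not tested.

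Fibroblast markers summed to 14.08 CPM in DR and 3.184 CPM in WT. COL1A1 had 572 reads in DR and 109 in WT, PDGFRB had 209 and 1, COL1A2 had 1 and 0, and COL3A1 had 0 and 1. Keratinocyte markers summed to 22.89 CPM and 27.4 CPM.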
